A study of Mus musculus with 12 samples.

Results

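The hearts of mice that received angiotensin II together with Forsythoside I (FI) were compared with the hearts of saline mice, to describe what still differed from saline under the compound. The libraries were chosen by their labels. 7 of the 12 libraries entered the comparison, namely saline 1 to 4 and Ang II + FI 1, 2 and 4. Ang II + FI 3 was kept out of the fit because it held liver transcripts, and its values are given beside the others. All 12 libraries were made from ventricular RNA of wild-type mice with 4 mice per group at the endpoint. Saline mice received saline and vehicle. Ang II mice received angiotensin II from an osmotic minipump placed under the skin, and vehicle. Ang II + FI mice received the same minipump and FI at 50 mg/kg, injected into the peritoneum every other day from the day before the pump to day 14. No group analysed here received FI with saline, so a difference from saline under both agents cannot be divided between them. The sources used here give no strain, age, sex or angiotensin II dose.

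Angiotensin II is the effector peptide of the renin-angiotensin system and signals mainly through the AT1 receptor, which raises blood pressure and acts on cardiomyocytes, fibroblasts and vessels. Its prolonged infusion is a standard mouse model of cardiac hypertrophy and fibrosis. In this model cardiomyocytes turn on natriuretic peptides and fetal sarcomere genes, while fibroblasts turn on matrix genes under TGF-beta. Forsythoside I is a phenylethanoid glycoside of the plant Forsythia.

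The 7 libraries held 69392898 to 73468996 counts. The share of counts on mitochondrially encoded genes was 36.4% ± 2.06 (SD, n = 4) in saline and 36.1% ± 1.18 (SD, n = 3) in Ang II + FI (exact two-sided permutation p = 0.914, where the smallest p that 4 against 3 libraries allow is 0.0571). The summed cardiomyocyte markers reached 46370 to 56291 CPM (counts scaled to the library total) in saline and 51335 to 59171 in Ang II + FI, and none of the 12 was at 0. CPM are also scaled by TMM, edgeR's correction for library composition, and a count of 3 equals 0.0411 to 0.0452 CPM. Ang II + FI 3 stood apart: its 25 hepatocyte markers summed to 30108 CPM, against 28.6 to 37.2 in saline, 34.2 to 111 in Ang II and 37.1 to 39.6 in the other Ang II + FI libraries. It also held 12419 counts of Xist, the RNA of the inactive X chromosome in female cells, against 0 to 14 in each of the other 11 libraries. Its counts of the Y-linked genes were 4123 for Ddx3y and 3865 for Eif2s3y, beside 4125 to 5297 and 4415 to 5885 in the other 11.

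Of 16962 genes tested, 92 were higher (0.542% of genes tested) and 34 lower (0.2%) in Ang II + FI than in saline at an adjusted p under 0.05 (edgeR's quasi-likelihood test with Benjamini-Hochberg adjustment, as for every adjusted p against saline given here). Together these 126 genes were 0.743% of those tested, and 2503 genes had an unadjusted p under 0.05. In all 126 the 3 Ang II + FI libraries lay outside the range of the 4 saline libraries, which was true of 8.22% of all genes upward and 6.9% downward. The log2 fold change exceeded 1 for 39 of the higher genes and was below -1 for 17 of the lower genes. Ang II + FI 3 lay above every saline library for 88 of the 92 higher genes and below every one for 24 of the 34 lower genes. The share of all genes tested for which this library did so was not computed, so these counts are no check of the calls. 20 of the 126 genes, 14 higher and 6 lower, were called in each of the 7 fits that left out 1 library, and 33 were called in none of them. Without Ang II + FI 1 there were 21 higher and 12 lower genes, without Ang II + FI 4 19 and 10, and without Ang II + FI 2 63 and 43. Without any 1 saline library there were 38 to 53 higher and 12 to 20 lower genes. Of the genes named by the rule given with the processing, Klhl34, C3ar1, Ctss, Laptm5, Cbr2, Mmp2, Myoz2, Smad3 and Prox1 were called in none of the 7, and Acta1, Zbtb16, Mt2, Pi16, Nrp1, Zfp36, Tbx5, Errfi1, Ky, Tnfrsf19 and Gm11992 in 1. Inhba and Tgfb3, described below but outside that rule, each lost the call in 6 of the 7. A value with ± in parentheses before an adjusted p is a log2 fold change of Ang II + FI over saline with its SE. In whole ventricle, more cells of a type and more RNA per cell cannot be told apart.

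The stress genes of the cardiomyocyte, a list of fetal and load-induced genes, had the highest median of the 51 gene lists. Of 17 tested members, 5 rose (Nppa, Nppb, Acta1, Mybpc2 and Xirp2) and none fell, and the median log2 fold change of the list was 0.67, beside -0.01 over all genes tested. Another 12 members were not called. The promoter windows of the 5 genes that rose are shown because they are the stress genes that passed the test. Each is the 250 bases before the start given by RefSeq (GRCm38.p6), but for Nppb only the 138 of them farthest from that start are shown, since GENCODE starts the gene 112 bases earlier. Capitals mark GGAATG, the core of the site of TEAD factors, or its reverse complement CATTCC, and TGANTCA, the site of AP-1, where N is any base.
Nppa (chr4:148000472-148000721, plus strand): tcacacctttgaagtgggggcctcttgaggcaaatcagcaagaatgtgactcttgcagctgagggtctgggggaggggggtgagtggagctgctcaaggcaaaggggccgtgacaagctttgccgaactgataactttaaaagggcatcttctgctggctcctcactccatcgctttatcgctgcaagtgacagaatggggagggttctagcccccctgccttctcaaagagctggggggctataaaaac
Nppb (chr4:147985650-147985787, plus strand): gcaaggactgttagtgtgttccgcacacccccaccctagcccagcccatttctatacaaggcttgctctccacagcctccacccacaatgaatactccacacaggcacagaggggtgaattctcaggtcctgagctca
Acta1 (chr8:123894776-123895025, minus strand): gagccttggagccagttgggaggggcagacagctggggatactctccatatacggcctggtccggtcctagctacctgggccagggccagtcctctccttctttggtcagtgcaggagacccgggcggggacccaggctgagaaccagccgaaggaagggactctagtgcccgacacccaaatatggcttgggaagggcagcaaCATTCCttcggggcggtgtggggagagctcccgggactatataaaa
Mybpc2 (chr7:44524670-44524919, minus strand): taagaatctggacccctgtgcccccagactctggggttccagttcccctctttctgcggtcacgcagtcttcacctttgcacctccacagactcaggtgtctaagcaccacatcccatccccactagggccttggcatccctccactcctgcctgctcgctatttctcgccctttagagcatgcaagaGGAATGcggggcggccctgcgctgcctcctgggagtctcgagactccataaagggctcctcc
Xirp2 (chr2:67445752-67446001, plus strand): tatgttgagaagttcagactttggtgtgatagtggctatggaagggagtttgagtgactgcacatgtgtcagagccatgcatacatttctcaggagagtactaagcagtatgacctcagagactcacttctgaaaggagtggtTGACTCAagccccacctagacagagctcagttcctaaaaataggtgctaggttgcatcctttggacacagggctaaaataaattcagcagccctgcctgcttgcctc

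The TEAD letters lay 46 to 41 bases before the window's end in Acta1 and 62 to 57 bases before it in Mybpc2, and the AP-1 letters 107 to 101 bases before it in Xirp2. The window of Nppa held neither. The 138 bases shown for Nppb held neither, but the 112 bases not shown held the TEAD letters at 1 place. RefSeq windows were matched for 69 of the 92 higher and 31 of the 34 lower genes. A gene was counted if any of its windows held the letters on either strand. The TEAD letters were held by 12 of these 69 higher genes (17.4%) and 2 of these 31 lower genes (6.45%). Of all 27025 genes with a RefSeq window, tested here or not, 14.4% held them. The AP-1 letters stood in 11.6%, 9.68% and 7.82% of these genes, in the same order. The GATA letters AGATAA stood in 4.35%, 3.23% and 11.4%, and the E-box CACGTG in 7.25%, 9.68% and 6.86%. These are matches of letters and were not tested against the counts.

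Nppb (natriuretic peptide B, secreted by stretched cardiomyocytes; chromosome 4) stood at 128, 93.6, 115 and 67.7 CPM in saline 1 to 4 and at 504, 463 and 575 CPM in Ang II + FI 1, 2 and 4, with 415 CPM in Ang II + FI 3. Every library under the compound lay above every saline library, and the lowest of them was still above the highest of the Ang II group (192 to 372 CPM). The log2 fold change against saline was 2.34 ± 0.20 (SE, adjusted p = 0.00163, 4 and 3 libraries), or 5.07-fold. Nppa (natriuretic peptide A, the atrial hormone that the ventricle makes again under load; chromosome 4) stood at 130.5, 94.97, 119.8 and 98.3 CPM in saline and at 350.1, 362 and 443 CPM under both agents, with 316 CPM in Ang II + FI 3. The groups did not overlap, and Nppa rose by 1.79 ± 0.14 (log2, SE, adjusted p = 0.00114). Nppa is also on the atrial cardiomyocyte marker list, which summed to 305 to 395 CPM in saline and 588 to 720 CPM in Ang II + FI; without Nppa its other 9 genes summed to 209.8 to 265 and 238 to 277 CPM, and the ranges overlapped.

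Mybpc2, the fast skeletal form of myosin-binding protein C (chromosome 7), rose from 4.95, 2.43, 4.91 and 4.53 CPM in saline to 18.7, 20.1 and 21.1 CPM, with 16.4 CPM in Ang II + FI 3. The log2 fold change was 2.24 ± 0.22 (adjusted p = 0.00434). Mybpc2 also stands on the skeletal muscle marker list, of which 1 of 7 tested members was called and 4 of 15 were at 0 in all 7 libraries; the list summed to 1510 to 1843 CPM in saline and 1657 to 1952 in Ang II + FI, so the ranges overlapped. Acta1 (skeletal alpha-actin, the fetal actin of the heart; chromosome 8) stood at 339, 132, 269 and 115 CPM in saline and 704, 729 and 901 CPM in Ang II + FI, with 593 CPM in Ang II + FI 3. Its saline libraries formed a high and a low pair, and its log2 fold change of 1.86 ± 0.34 (adjusted p = 0.0496) was called in only 1 of the 7 fits that left out a library, the one without saline 1. Xirp2, an actin-binding repeat protein of the intercalated disc (chromosome 2), stood at 138, 162, 216 and 189.9 CPM in saline and 438, 392 and 462 CPM in Ang II + FI, a log2 fold change of 1.28 ± 0.14 (adjusted p = 0.00718).

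Other members of the list did not pass. Ankrd1, the cardiac ankyrin repeat protein of the sarcomere, stood at 955, 633, 743 and 392 CPM in saline and 1249.8, 1241 and 1462 CPM in Ang II + FI, without overlap, with a log2 fold change of 0.95 ± 0.24 (adjusted p = 0.120). Myh7, the slow and fetal myosin heavy chain, stood at 148 to 284 CPM in saline and 203 to 358 CPM under the compound, and the groups overlapped (0.53 ± 0.24, adjusted p = 0.359). Its adult counterpart Myh6 did not pass either (0.20 ± 0.21, adjusted p = 0.722). Hspb7, a small heat shock protein that keeps sarcomeric filamin in order, rose from 474, 533, 495 and 667 CPM to 1032, 1064 and 1108 CPM (0.97 ± 0.12, adjusted p = 0.0111), and was the only one of 18 tested cytosolic chaperones that was called; without Ang II + FI 4 it was not called.

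**Figure D1:**
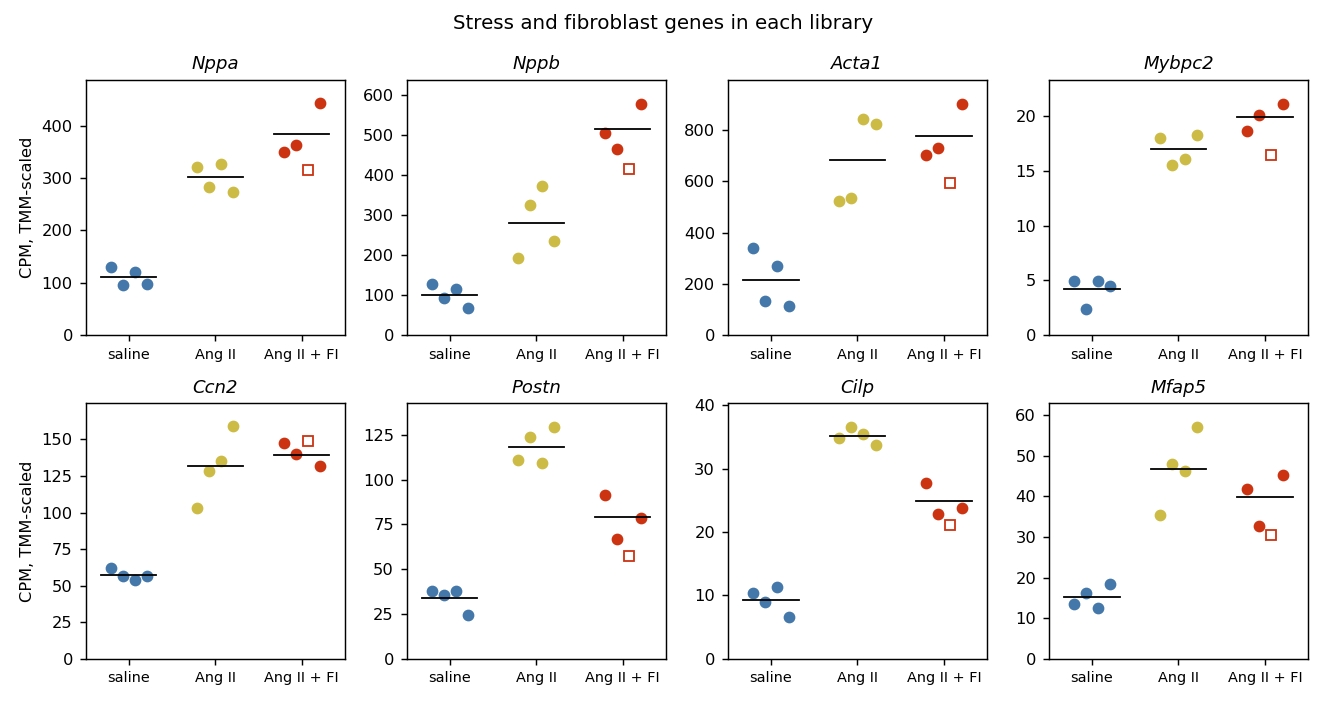
CPM, scaled by TMM, (vertical axes, from 0) of 4 cardiomyocyte stress genes (upper row) and 4 fibroblast and matrix genes (lower row) in each library of the 3 groups. Points are libraries, black lines are group means, and the open square is Ang II + FI 3, which is left out of its group's mean; every filled Ang II + FI point lies above every saline point in all 8 genes.

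Of 27 tested members of the list of activated fibroblast and TGF-beta response genes, 6 rose (Ccn2, Thbs4, Cilp, Postn, Inhba and Tgfb3) and none fell, with a median log2 fold change of 0.52. Ccn2, the matricellular growth factor once named Ctgf (chromosome 10), stood at 62.04, 56.5, 53.6 and 56.6 CPM in saline and 148, 139.8 and 132 CPM in Ang II + FI, with 149 CPM in Ang II + FI 3. Both groups were narrow and far apart, and the log2 fold change was 1.28 ± 0.09 (adjusted p = 0.000543). Cilp, a secreted cartilage matrix protein made by activated cardiac fibroblasts, rose from 10.3, 9.01, 11.3 and 6.62 CPM to 27.8, 22.9 and 23.8 CPM (1.41 ± 0.17, adjusted p = 0.0111); without Ang II + FI 1 it was not called. Postn, the matricellular protein periostin that marks activated fibroblasts, rose from 38.03, 35.4, 38.02 and 24.5 CPM to 91.4, 66.9 and 78.6 CPM (1.21 ± 0.17, adjusted p = 0.0176), and the call was lost without saline 2, Ang II + FI 1 or Ang II + FI 4.

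Thbs4, a thrombospondin of stressed heart and tendon, rose from 3.58, 3.36, 3.39 and 2.77 CPM to 7.96, 7.15 and 9.57 CPM (1.32 ± 0.16, adjusted p = 0.0103) and was not called without Ang II + FI 4. Inhba, a subunit of activin A, had a log2 fold change of 1.52 ± 0.27 (adjusted p = 0.0466), and Tgfb3, a TGF-beta ligand, one of 0.87 ± 0.16 (adjusted p = 0.0481). Each of these last 2 calls was lost in 6 of the 7 fits without a library. Tgfb1, the ligand most often tied to cardiac fibrosis, stood at 9.98 to 14.6 CPM in saline and 11.9 to 17.6 CPM in Ang II + FI, and the ranges overlapped (0.35 ± 0.17, adjusted p = 0.386). Smooth muscle actin Acta2, which myofibroblasts use, stood at 102 to 203 CPM and 75.1 to 109 CPM in the 2 groups and did not pass (-0.59 ± 0.23, adjusted p = 0.285).

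Among collagens and other matrix proteins, 6 of 40 tested members rose (Ltbp2, Mfap5, Col8a1, Mfap4, Bgn and Col16a1) and none fell, with 36 of 40 above 0 and a median log2 fold change of 0.39. Mfap5, a glycoprotein of elastic microfibrils, stood at 13.4, 16.2, 12.5 and 18.5 CPM in saline and 41.8, 32.7 and 45.4 CPM in Ang II + FI, with 30.6 CPM in Ang II + FI 3. The groups did not overlap, and the log2 fold change was 1.40 ± 0.16 (adjusted p = 0.00954). Ltbp2, which binds microfibrils of the matrix, rose from 1.596, 0.944, 1.47 and 1.47 CPM to 5.79, 3.901 and 4.94 CPM (1.83 ± 0.23, adjusted p = 0.0118); the call was lost without Ang II + FI 1 or 4. Col8a1, a short-chain network collagen, rose from 17.3 ± 2.904 CPM (SD, n = 4) to 41.1 ± 8.74 CPM (SD, n = 3), a log2 fold change of 1.25 ± 0.17 (adjusted p = 0.0191), which was called in 3 of the 7 fits without a library. The proteoglycan Bgn rose by 0.77 ± 0.11 on the log2 scale (adjusted p = 0.0233).

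The main fibrillar collagens were not among the genes called. Col1a1, a chain of type I collagen, stood at 35.2, 40.2, 47.1 and 36.9 CPM in saline and 55.1, 58.1 and 60.8 CPM in Ang II + FI, without overlap, but its log2 fold change of 0.54 ± 0.11 did not pass (adjusted p = 0.0747). Col3a1, the chain of type III collagen, stood at 141, 144, 171 and 103 CPM and 189, 169 and 172 CPM, and its ranges overlapped (0.33 ± 0.15, adjusted p = 0.344). Elastin, Eln, had a log2 fold change of 0.77 ± 0.20 (adjusted p = 0.127). Of 29 tested genes of matrix cross-linking and turnover 1 rose, the gelatinase gene Mmp2 (0.52 ± 0.09, adjusted p = 0.0424), and the list's median was 0.21.

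The resting fibroblast markers moved in the same libraries. Their 14 genes summed to 1534 to 1991 CPM in saline and 2134 to 2216 CPM in Ang II + FI, without overlap, and to 1846 CPM in Ang II + FI 3; none was at 0. Their part in the matrix result was not tested. 2 of the 14 rose: Pi16, a peptidase inhibitor of adventitial fibroblasts (0.86 ± 0.15, adjusted p = 0.0412), and Mgp, the matrix Gla protein that inhibits calcification (0.83 ± 0.10, adjusted p = 0.0118). Mgp stood at 67.02, 88.7, 77.5 and 79.6 CPM in saline and 142, 130.02 and 147 CPM in Ang II + FI, without overlap, and was not called without Ang II + FI 1 or 4.

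Other ligands and regulators changed singly. Edn3, the vasoactive peptide endothelin 3 (chromosome 2), stood at 0.835, 0.529, 0.685 and 0.526 CPM in saline and 2.13, 4.54 and 3.53 CPM in Ang II + FI, with 2.22 CPM in Ang II + FI 3. It was low in every saline library, and its log2 fold change of 2.39 ± 0.31 was the largest among the named genes (adjusted p = 0.0120); without Ang II + FI 4 it was not called. The other 18 tested members of the adrenergic and endothelin list were not called, the ligand Edn1 and the receptors Ednra and Ednrb among them.

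Fstl3, a secreted inhibitor of activin and myostatin, rose from 1.88, 1.54, 1.97 and 2.104 CPM to 5.28, 5.63 and 5.87 CPM (1.57 ± 0.17, adjusted p = 0.00625), and Ang II + FI 3 stood at 5.49 CPM. Smad3, the transcription factor that carries the TGF-beta signal to the nucleus, fell from 16.8, 15.3, 13.7 and 14.6 CPM to 10.00, 10.2 and 8.88 CPM (-0.65 ± 0.11, adjusted p = 0.0448). No other of the 21 tested genes on the list of TGF-beta and BMP signalling was called. Tgfb3, Inhba and Bambi, described elsewhere here, were called higher but are not on that list. The receptor of angiotensin II, Agtr1a, stood at 32.4, 26.9, 31.4 and 41.8 CPM in saline and 21.9, 25.5 and 21.4 CPM in Ang II + FI, without overlap, and did not pass (-0.53 ± 0.15, adjusted p = 0.153). None of the 12 tested genes of the renin-angiotensin system was called, 8 of them were below 0, and the list's median was -0.30.

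A few complement and macrophage genes passed the test, each higher in Ang II + FI. Of 16 tested complement genes, 3 rose and none fell: C1qb and C1qc, chains of C1q that tissue macrophages make, and C3ar1, the receptor of the C3a fragment. C1qb stood at 40.8, 49.4, 47.3 and 45.8 CPM in saline and 74.2, 72.2 and 83.5 CPM in Ang II + FI (0.74 ± 0.10, adjusted p = 0.0142). C1qc stood at 36.95, 38.9, 38.6 and 35.3 CPM and 62.1, 55.6 and 60.4 CPM (0.66 ± 0.09, adjusted p = 0.0123). In both genes the groups did not overlap, and in both the call was lost without Ang II + FI 1 or 4. C3ar1 rose by 0.99 ± 0.16 (adjusted p = 0.0316).

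All 18 macrophage markers had log2 fold changes above 0, from 0.28 for Cx3cr1 to 0.71 for Ms4a7, with a median of 0.51. 2 of them rose, the lysosomal protease gene Ctss (0.59 ± 0.11, adjusted p = 0.0466) and the lysosomal membrane gene Laptm5 (0.58 ± 0.10, adjusted p = 0.0365). The list summed to 302 to 423 CPM in saline and 494 to 542 CPM in Ang II + FI, without overlap, and to 427 CPM in Ang II + FI 3, and no marker was at 0; its part in the complement result was not tested. Of 10 markers of resident macrophages 1 rose, the carbonyl reductase gene Cbr2 (0.57 ± 0.10, adjusted p = 0.0485), and the 10 summed to 198 to 229 CPM in saline and 243 to 262 CPM in Ang II + FI, without overlap. Recruited macrophage and monocyte markers summed to 56.4 to 76.6 CPM in saline and 74.8 to 93.3 CPM in Ang II + FI, and none of 11 tested was called. They summed to 578 CPM in Ang II + FI 3, the library with liver transcripts, and the source of these counts was not tested. None of 30 tested inflammatory cytokine and sensor genes was called either. Among them, Il1b stood at 0.775 to 1.92 CPM in saline and 1.46 to 2.26 CPM in Ang II + FI, and Ccl2 at 0.568 to 3.89 and 2.16 to 3.51 CPM. Il6 had 0 to 28 counts in any library and was not tested.

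**Figure D2:**
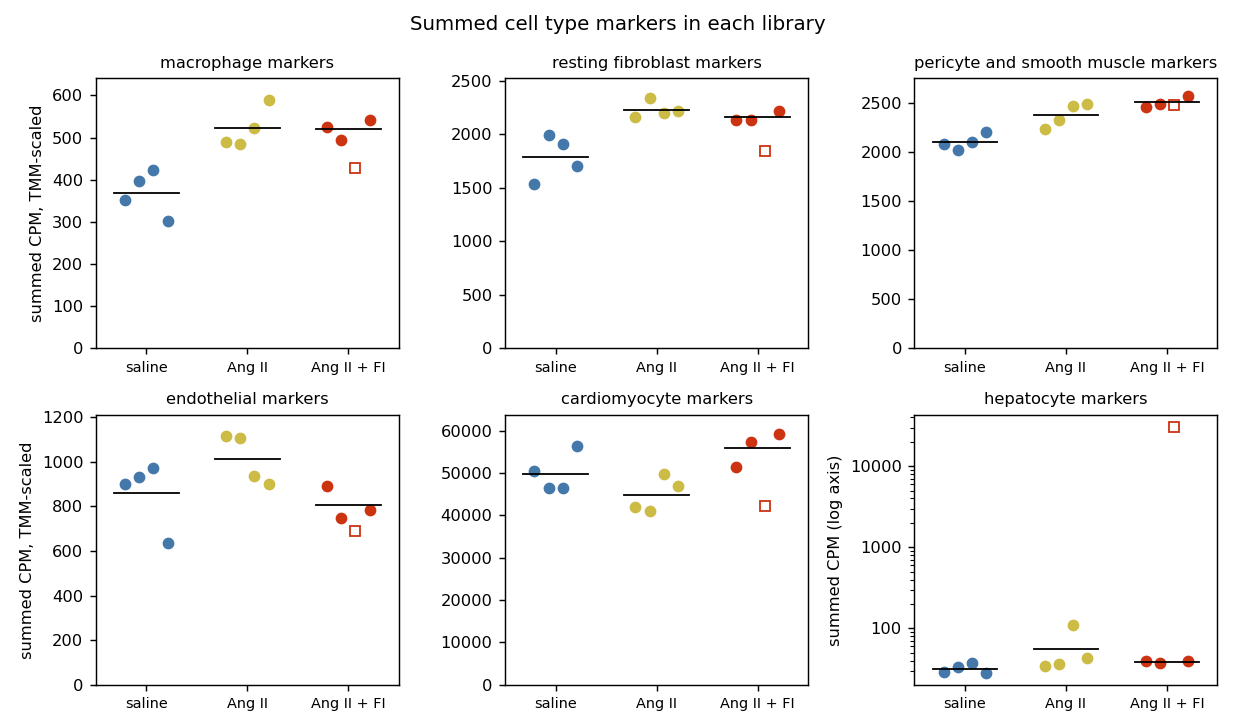
Summed CPM, scaled by TMM, of 6 cell type marker lists (vertical axes, from 0 except for the hepatocyte list, which has a log axis) in each library of the 3 groups. Points are libraries, black lines are group means and the open square is Ang II + FI 3, left out of the mean; macrophage, resting fibroblast and pericyte and smooth muscle sums of the filled Ang II + FI points lie above all saline points, and the hepatocyte sum reaches 30108 in Ang II + FI 3.

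The summed pericyte and smooth muscle markers were also higher, at 2021 to 2202 CPM in saline and 2455 to 2564 CPM in Ang II + FI, although the median log2 fold change of the 14 genes was -0.08 and none was called. Des, the muscle intermediate filament desmin, is on that list and is made by cardiomyocytes as well; it stood at 835 to 1195 CPM in saline and 1313 to 1546 CPM in Ang II + FI. Endothelial markers overlapped, at 634 to 974 CPM and 747 to 889 CPM. Neutrophil markers were few, at 3.34 to 5.23 CPM in saline and 2.11 to 2.64 CPM in Ang II + FI, with 2 of 10 at 0 in all 7 libraries and none of 4 tested called.

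Among the lists of contractile, electrical and metabolic genes of the cardiomyocyte, only the contractile list held calls. These were 2 of 20 tested members, beside 0.743% of all genes tested. Synpo2l, a called gene of the Z-disc described below, is not on that list. Of 20 tested contractile and Z-disc genes, Myoz2, a calcineurin-binding Z-disc protein, rose (0.51 ± 0.09, adjusted p = 0.0466), and Ky, a protease of the Z-disc, fell from 16.5, 14.6, 17.5 and 20.02 CPM to 6.001, 9.64 and 8.47 CPM (-1.10 ± 0.18, adjusted p = 0.0346). None of 15 calcium handling genes was called, and the calcium pump gene Atp2a2 stood at 6197 to 9061 CPM in saline and 5344 to 7165 CPM in Ang II + FI (-0.25 ± 0.15, adjusted p = 0.479). Of 22 ion channel genes none was called, 18 were below 0, and the median was -0.28. The 2 with the smallest adjusted p were Kcnj5, a subunit of the acetylcholine-gated potassium channel (-0.55 ± 0.11, adjusted p = 0.0651), and Scn4b, a sodium channel subunit (-0.59 ± 0.12, adjusted p = 0.0756), both chosen after their values were seen.

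No gene of the main fuel pathways passed the test. The median log2 fold change was -0.11 over 37 genes of fatty acid uptake and oxidation, -0.09 over 25 genes of the TCA cycle and 0.08 over 42 nuclear-encoded genes of oxidative phosphorylation. The same lists had medians of -0.27, -0.24 and -0.09 in Ang II against the same saline libraries. Of the oxidative stress genes, Hmox1, heme oxygenase 1, stood at 3.91 to 6.65 CPM in saline and 7.61 to 9.47 CPM in Ang II + FI and did not pass (0.69 ± 0.18, adjusted p = 0.127). Nqo1, a quinone reductase and NRF2 target, did not pass either (0.17 ± 0.11, adjusted p = 0.512).

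**Figure D3:**
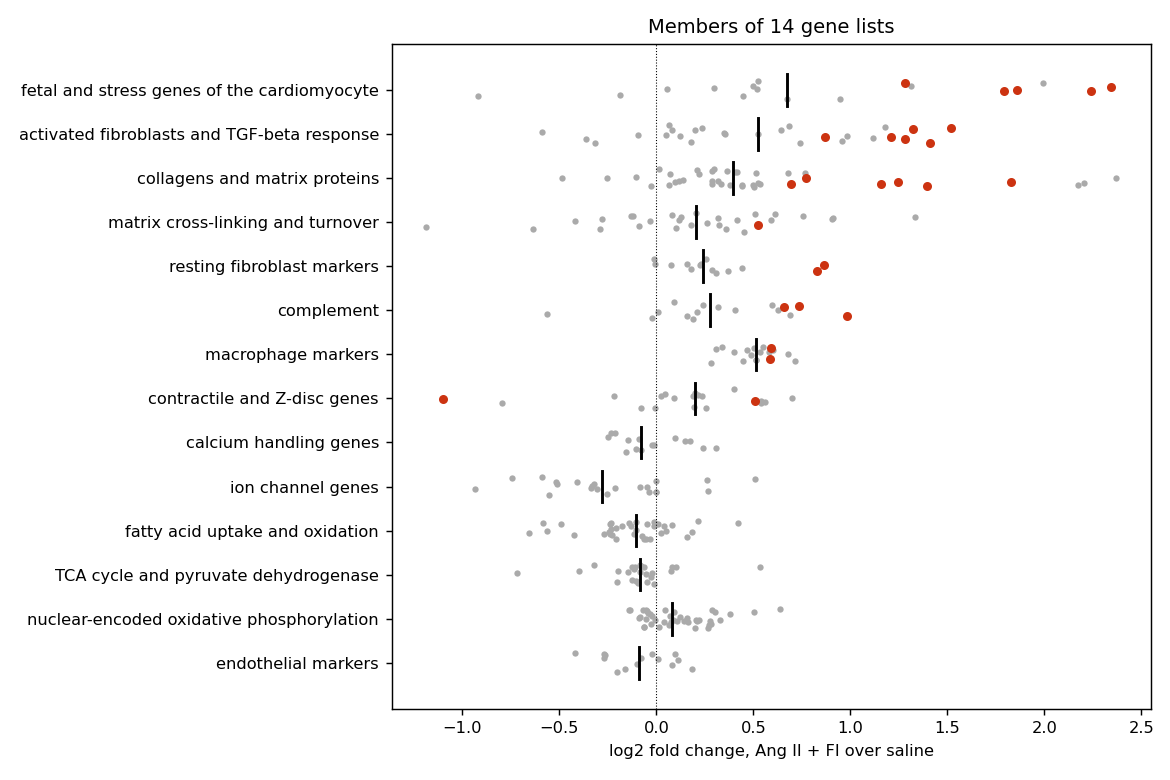
Log2 fold changes of Ang II + FI over saline (horizontal axis) for the tested members of 14 gene lists. Each point is a gene, red points were called, black bars are list medians and the dotted line is 0; the stress list has the highest median, 0.67, and the ion channel list the lowest, -0.28.

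Several transcription factors and signalling genes were lower. Tbx5, a T-box factor of cardiac development and conduction, stood at 12.99, 14.1, 11.7 and 15.8 CPM in saline and 8.37, 7.89 and 8.11 CPM in Ang II + FI, without overlap (-0.75 ± 0.13, adjusted p = 0.0380). Prox1, a homeobox factor of lymphatic endothelium that cardiomyocytes also use, fell from 56.2, 43.7, 47.3 and 43.9 CPM to 29.4, 33.04 and 26.6 CPM (-0.69 ± 0.12, adjusted p = 0.0467), while the other 6 tested lymphatic markers had log2 fold changes above 0 and none was called. Nrp1, a co-receptor of semaphorins and VEGF, fell from 67.3, 64.5, 70.7 and 53.97 CPM to 41.3, 41.7 and 39.6 CPM (-0.66 ± 0.11, adjusted p = 0.0349). All 3 lay below the saline range in each of the 3 libraries compared, and Ang II + FI 3 did so too, at 9.05, 41.8 and 41.8 CPM.

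Of 24 tested genes of the unfolded protein and integrated stress response 1 was called. It was Ddit3, the CHOP factor, which rose from 10.1, 11.5, 10.7 and 11.1 CPM to 17.97, 19.7 and 17.7 CPM (0.76 ± 0.10, adjusted p = 0.0120), and was not called without Ang II + FI 1 or 4. Ddit3 overlaps Mars on the other strand, which averaged 22.9 CPM in saline and 26.9 CPM in Ang II + FI. Their reads cannot be told apart without strand. Ier5, an early response gene on no list, was called higher and is described under other observations. Of the 21 tested members of the list of immediate early genes 1 was called. It was Zfp36, the mRNA-destabilising protein tristetraprolin, which fell from 33.7, 29.7, 41.1 and 35.99 CPM to 19.9, 20.9 and 23.6 CPM (-0.72 ± 0.13, adjusted p = 0.0452), while Ang II + FI 3 stood at 72.9 CPM. Of 14 glucocorticoid targets, Mt2, a metallothionein (1.47 ± 0.25, adjusted p = 0.0414), and Zbtb16, a zinc finger factor (1.78 ± 0.31, adjusted p = 0.0437), rose. On the same list Errfi1, an inhibitor of EGF receptor signalling, fell from 23.8, 29.3, 35.9 and 33.2 CPM to 16.99, 16.1 and 15.4 CPM (-0.92 ± 0.14, adjusted p = 0.0286). Ang II + FI 3 held 346 CPM of Errfi1, and with that library in the fit the log2 fold change was 1.67 (adjusted p = 0.478).

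Among the largest increases outside these lists, Tnfrsf12a, the receptor of the cytokine TWEAK, stood at 22.97, 10.6, 22.6 and 9.41 CPM in saline and 57.5, 57.2 and 62.5 CPM in Ang II + FI, with 93.5 CPM in Ang II + FI 3. The log2 fold change was 1.84 ± 0.31 (adjusted p = 0.0365), and the call was lost in 5 of the 7 fits without a library. Klhl34, a kelch-like gene on the X chromosome, rose by 1.58 ± 0.29 (adjusted p = 0.0470). Gm49322 (2.25 ± 0.35, adjusted p = 0.0311) shares exons on its strand with Scamp4 and Adat3. Summed with them its log2 fold change was 0.20 (adjusted p = 0.473).

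The 10 largest decreases included genes at distinct high and low levels. Hnrnpa3, an RNA-binding protein of splicing and mRNA transport on chromosome 2 from 75659261 to 75669407 (GRCm38), stood at 36.9, 36.4, 36.6 and 37.5 CPM in saline 1 to 4 and at 1.96, 2.02 and 2.06 CPM in Ang II + FI 1, 2 and 4. Ang II + FI 3 stood at 48.99 CPM and Ang II 1 to 4 at 40.8, 10.5, 44.1 and 38.9 CPM, so Ang II 2 was also below saline, but not as low as the 3 compared libraries. The raw counts were 2477 to 2712 in saline and 130, 137 and 144 in the 3 compared Ang II + FI libraries. Its log2 fold change against saline was -4.20 ± 0.10 (adjusted p = 1.29e-07), or 18.4-fold lower, and with Ang II + FI 3 in the fit it was -1.44 (adjusted p = 0.556). Hnrnpa3 has near-identical processed pseudogenes, and the sources used here do not say how reads with several mapping places were counted, so its level is uncertain.

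Rsc1a1, an intronless regulator of glucose transport, stood at 6.56, 8.41, 6.66 and 7.198 CPM in saline and 0.271, 0.207 and 0.186 CPM in Ang II + FI, against 28.3 CPM in Ang II + FI 3 (-5.02 ± 0.22, adjusted p = 1.55e-05). In the Ang II group it stood at 6.51, 6.203, 0.279 and 7.12 CPM, so 1 library was low and 3 were at the saline level. Its exon overlaps Ddi2 on the same strand, and the summed counts gave a log2 fold change of -0.42 (adjusted p = 0.159). B4gat1, a glycosyltransferase of dystroglycan, stood at 16.6, 15.1, 29.7 and 22.5 CPM in saline and 2.71, 4.45 and 5.08 CPM in Ang II + FI, with 6.52 CPM in Ang II + FI 3 (-2.36 ± 0.29, adjusted p = 0.0111), and summed with the overlapping Gm50388 its log2 fold change was -0.54 (adjusted p = 0.156). Gm20605 overlaps Lrch4 and Sap25, and its log2 fold change of -1.49 ± 0.14 became -0.04 in the sum (adjusted p = 0.938).

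Gk, the glycerol kinase gene on the X chromosome, stood at 49.02, 40.5, 38.1 and 45.3 CPM in saline and 15.1, 17.1 and 15.9 CPM in Ang II + FI, with 20.1 CPM in Ang II + FI 3. All 4 libraries with the compound were low, and 2 of the 4 Ang II libraries, 1 and 4, were as low (17.7, 41.8, 45.3 and 16.97 CPM in Ang II 1 to 4). The log2 fold change was -1.44 ± 0.12 (adjusted p = 0.00163). Pds5a, a cohesin regulator, stood at 44.4, 38.5, 39.1 and 36.6 CPM in saline and 13.7, 17.04 and 12.1 CPM in Ang II + FI (-1.48 ± 0.14, adjusted p = 0.00332), and at 34.7 CPM, near saline, in Ang II + FI 3. Ikbkg, the NEMO subunit of the NF-kappa-B kinase, stood at 21.1, 13.2, 8.83 and 10.9 CPM and 3.38, 3.64 and 4.06 CPM (-1.88 ± 0.28, adjusted p = 0.0277), with 24.4 CPM in Ang II + FI 3. Ikbkg overlaps G6pdx on the other strand, and reads of the 2 genes cannot be told apart without strand. Exons of 35 of the 126 called genes overlap a listed gene on the other strand.

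Tnfrsf19, a TNF receptor family member (-1.44 ± 0.21, adjusted p = 0.0258), Tmem260, a membrane mannosyltransferase (-1.37 ± 0.19, adjusted p = 0.0176), and Gm11992 (-2.29 ± 0.37, adjusted p = 0.0323) completed the 10. Of the 10, Hnrnpa3, Rsc1a1, Gk, Pds5a, Gm20605 and B4gat1 were called in every fit that left out a library.

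**Figure D4:**
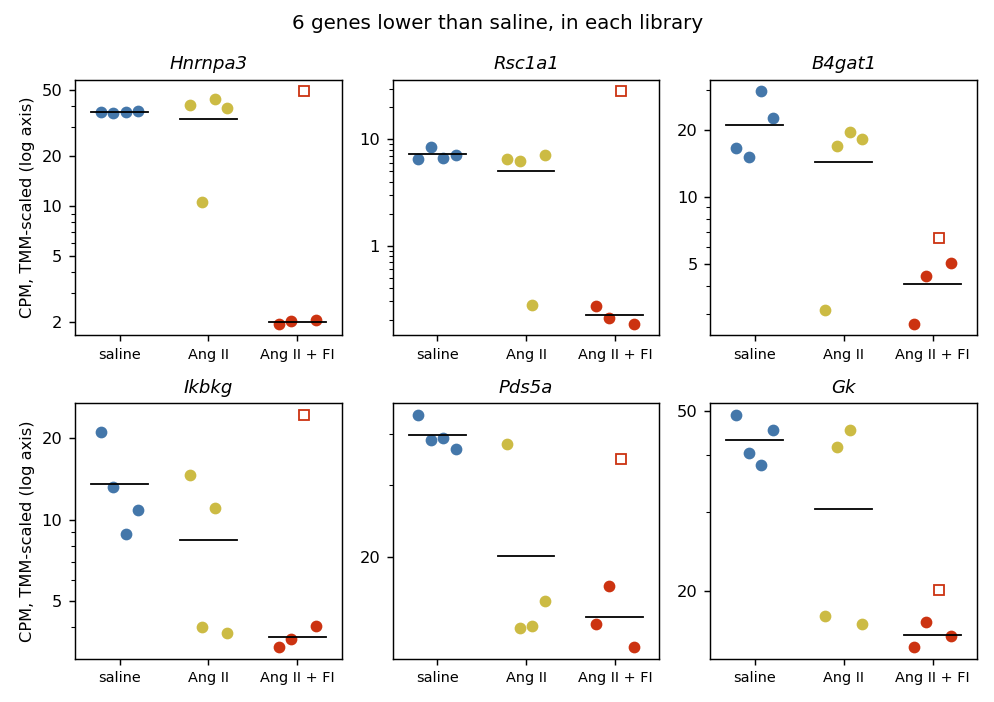
CPM, scaled by TMM, (log axes) of 6 of the 10 genes with the largest decreases, in each library of the 3 groups. Points are libraries, black lines are group means and the open square is Ang II + FI 3, left out of the mean; in Hnrnpa3, Rsc1a1, Ikbkg and Pds5a the open square lies far above the filled Ang II + FI points.

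A few muscle genes outside the naming rule were picked after their values were seen, because they were called in every fit that left out a library. Abra, an actin-binding protein of striated muscle, stood at 29.4, 25.1, 28.8 and 29.2 CPM in saline and 60.3, 82.3 and 64.5 CPM in Ang II + FI (1.29 ± 0.12, adjusted p = 0.00396). Synpo2l, an actin-associated protein of the Z-disc, stood at 55.3, 57.8, 72.9 and 83.97 CPM and 168, 163 and 172 CPM (1.31 ± 0.14, adjusted p = 0.00639). Slmap, a membrane protein of the sarcolemma, stood at 83.2 to 114 CPM and 193 to 227 CPM (1.05 ± 0.12, adjusted p = 0.00786). In all 3 the groups did not overlap and Ang II + FI 3 lay above saline, at 60.9, 166 and 181 CPM. Bambi, a decoy receptor of TGF-beta and BMP, chosen in the same way, rose by 0.90 ± 0.10 (adjusted p = 0.00625).

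The Ang II group without the compound was set beside these values in a fit of 11 libraries, in which it shares the saline libraries with Ang II + FI. There 441 of 17702 genes were higher (2.49%) and 242 lower (1.37%) in Ang II than in saline, and 165 were higher (0.932%) and 55 lower (0.311%) in Ang II + FI than in saline. This fit held 4 Ang II libraries but only 3 of Ang II + FI, so the numbers of calls against saline are not directly comparable. Between Ang II + FI and Ang II themselves 0 genes were higher (0.0%) and 1 was lower (0.00565%), namely Hnrnpa3 (log2 fold change -4.06, adjusted p = 0.00553 by edgeR's quasi-likelihood test with Benjamini-Hochberg adjustment), and 1404 genes had an unadjusted p under 0.05. Of the 126 genes called against saline, 44 had an unadjusted p under 0.05 between Ang II + FI and Ang II, beside 1404 of all 17702 genes. The same 3 Ang II + FI libraries enter both comparisons. Small p values are therefore favoured among the 126, and this count is no test of the compound. The difference between the 2 Ang II groups was not shown by adjusted p for any gene named here other than Hnrnpa3.

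By their medians, matrix genes lay between saline and Ang II. In the fit of 11 libraries the median log2 fold change of the 40 collagen and matrix genes was 0.83 in Ang II and 0.39 in Ang II + FI. Of these genes 29 and 9 were called higher, from 4 and 3 libraries. Postn stood at 111, 124, 109 and 129 CPM in the 4 Ang II libraries, all above the 3 compared Ang II + FI libraries; the log2 difference between the 2 groups was -0.58 (unadjusted p = 0.00216, adjusted p = 0.542). Cilp stood at 34.9, 36.5, 35.4 and 33.8 CPM in Ang II, with a difference of -0.50 (adjusted p = 0.542). For Col1a1 it was -0.44 (adjusted p = 0.542), for Col3a1 -0.65 (adjusted p = 0.542) and for Eln -0.92 (adjusted p = 0.526).

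The medians of the stress genes lay close together, at 0.63 in Ang II and 0.60 in Ang II + FI over the 18 members tested in the fit of 11 libraries, with 8 and 5 called higher. Nppb was 1.47 ± 0.22 above saline in Ang II (log2, SE), and the log2 difference of Ang II + FI over Ang II was 0.87 (unadjusted p = 0.00256, adjusted p = 0.542). Nppa was 1.44 ± 0.12 above saline in Ang II, with a difference of 0.36 between the 2 groups (adjusted p = 0.542). Ccn2 was 1.20 ± 0.12 above saline in Ang II, with a difference of 0.09 (adjusted p = 0.894). Marker sums of some cell types also differed between the 2 groups without overlap. Cardiomyocyte markers summed to 41092 to 49669 CPM in Ang II and 51335 to 59171 CPM in Ang II + FI. Recruited macrophage and monocyte markers summed to 101 to 113 and 74.8 to 93.3 CPM, and endothelial markers to 899 to 1117 and 747 to 889 CPM, in the same order. Atrial cardiomyocyte markers summed to 507 to 582 and 588 to 720 CPM, but overlapped without Nppa. Mast cell markers were few, at 7.66 to 11.3 and 4.39 to 7.2 CPM. Ang II + FI 3, kept out of these ranges, summed to 42190 CPM for cardiomyocyte markers, inside the Ang II range. Its recruited macrophage and monocyte markers summed to 578 CPM, above every other library, and its endothelial markers to 688 CPM. This library also held 30108 CPM of hepatocyte markers. Its adipocyte markers (541 CPM) and mesothelial and epicardial markers (145 CPM) were above every other library too. The recruited list includes the matrix gene Fn1, and the part of each member in its sum was not examined. The macrophage list overlapped, at 485 to 590 CPM in Ang II and 494 to 542 CPM in Ang II + FI, and so did resting fibroblast markers, at 2161 to 2341 and 2134 to 2216 CPM. The part of these sums in the matrix and stress gene differences was not tested.

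**Figure D5:**
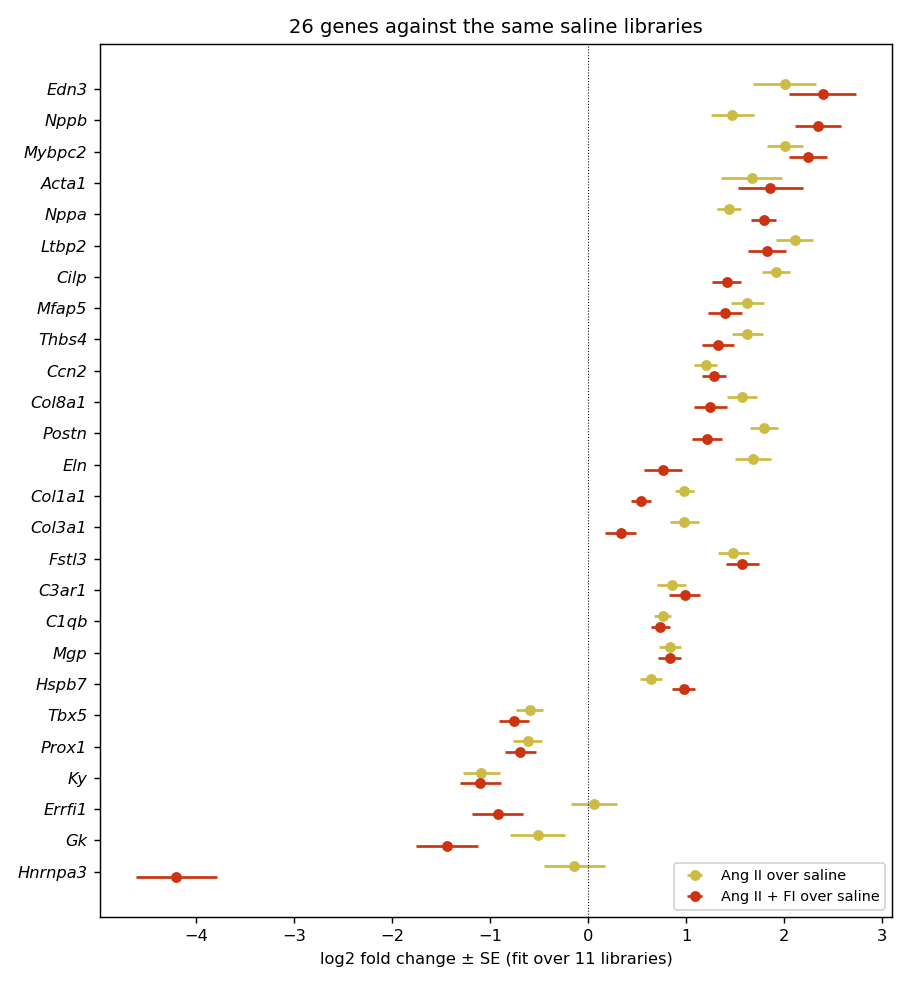
Log2 fold changes with standard errors (horizontal axis) of 26 genes in Ang II over saline and in Ang II + FI over saline, both from 1 fit of 11 libraries without Ang II + FI 3 and against the same 4 saline libraries. Each pair of points is a gene and the dotted line is 0; the points of Postn, Eln, Col1a1 and Col3a1 lie further left in Ang II + FI than in Ang II, that of Nppb further right, and Hnrnpa3 stands at the far left in Ang II + FI alone.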

How the data were processed

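Bulk RNA sequencing of mouse ventricle gave 12 libraries, grouped by the treatment in their titles. The authors deposited raw counts per gene. The submitters' processing notes name build GRCm38 and the tools HISAT, featureCounts 1.5.0-p3 and DESeq 1.8.3. The sources used here do not give strandedness, the annotation release or how reads with several mapping places were counted. The labels' protocols name TRIzol in one field and an RNeasy kit in another.

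The table listed 55421 genes, 27438 of them without a count; 13 unnamed empty columns were ignored, and 27 date-like symbols were repaired by gene ID. Coordinates and overlaps came from GENCODE M21, which held 55240 of the IDs (99.7%). Genes were filtered with filterByExpr, scaled by TMM and tested with edgeR 4.0.16 (quasi-likelihood, R 4.3.3) in 7 libraries without covariates. A call needs an adjusted p under 0.05. SE is the size of the log2 fold change divided by the square root of F. CPM (counts over the library total) were scaled by TMM over all 12 libraries. A count of 3 was taken as the floor, which covers counting error only. Of counts from 1 to 40, 33.9% to 36.6% per library were multiples of 4, where an even spread gives 25%; the reason is not known, and counting error at low levels may be larger than the counts imply. An 11-library fit gave the Ang II values. Alternatives were DESeq2 1.42.0, limma-voom (limma 3.58.1), other scalings, filters and designs, and each library left out; summing overlapping gene models was added after seeing the data. Scripts were tested on simulated data.

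The genes named were those protein-coding genes, called and without overlap, that had the 10 largest increases and the 10 largest decreases at a mean CPM of 1 or more, up to 3 called members of each of 51 gene lists, and 19 fixed genes. The comparison, lists and fixed genes were chosen with earlier results of these data known.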

Additional observations from a re-analysis of the deposited data

Results flagged for a closer look

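A library was singled out where its gap to the nearest library of its group, divided by the group's range, passed the 95% critical value of Dixon's test for 4 libraries. Over 59 genes and 3 groups, 177 groups were looked at, and 21 values passed, where chance gives about 1 in 20 groups. Most of the genes were named from a fit without Ang II + FI 3, so that rate does not apply to its group. Ang II + FI 3 held 8 of the 21, all of them highest in their group.

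In Ang II + FI 3, Errfi1 stood at 346 CPM against 15.4 to 16.99 in the other 3 libraries, Tnfrsf12a at 93.5 against 57.2 to 62.5, and Zfp36 at 72.9 against 19.9 to 23.6. The same library held Hnrnpa3 at 49.0 CPM against 1.96 to 2.06 and Rsc1a1 at 28.3 against 0.186 to 0.271. It held Ikbkg at 24.4 CPM against 3.38 to 4.06, Gm20605 at 10.1 against 3.41 to 3.68 and Tnfrsf19 at 2.62 against 1.297 to 1.42.

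In the Ang II group, 11 values stood apart. Library 1 was low in Hspb7 (732 CPM against 872 to 900.4), Col8a1 (42.2 against 53.3 to 55.4) and B4gat1 (3.13 against 16.9 to 19.4), and high in Pds5a (37.8 against 13.4 to 15.6). Library 2 was low in Mmp2 (64.8 against 74.2 to 74.8) and Hnrnpa3 (10.5 against 38.9 to 44.1). Library 3 was high in Edn3 (4.23 against 1.87 to 2.19) and low in Rsc1a1 (0.279 against 6.203 to 7.12) and Zfp36 (17.6 against 28.5 to 30.5). Library 4 was high in Eln (65.5 against 46.5 to 49.5) and Mt2 (23.3 against 7.98 to 8.74). In saline, library 3 was high in Gm49322 (3.51 CPM against 1.32 to 1.601) and library 2 low in Mybpc2 (2.43 against 4.53 to 4.95).

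Signal outside the comparison appeared in Ang II + FI 3, whose hepatocyte markers summed to 30108 CPM, against 28.6 to 37.2 CPM in the 4 saline libraries.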

How the results depend on the processing

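The 92 higher and 34 lower genes became 35 and 10 with no filter on low counts, 427 and 285 with DESeq2, 165 and 55 in the fit of 11 libraries (80 and 21 of them shared with the 7-library fit), and 35 and 13 with Ang II + FI 3 included. Leaving out 1 library gave 19 to 63 higher and 10 to 43 lower genes, of which 17 to 46 and 6 to 15 were among those of the 7-library fit. Other scalings, limma-voom, a minimum of 1 CPM in 3 libraries, leaving out mitochondrially encoded genes and summing overlapping gene models left both counts within 1.5 times (87 to 105 higher and 30 to 43 lower). With Ang II + FI 3 included the common biological coefficient of variation was 0.344, against 0.258 without it, and the log2 fold change of Errfi1 turned from -0.92 to 1.67. Ccl2, which was not called, had a log2 fold change of 0.16, which ran from -0.18 (without saline 4) to 0.46 (without saline 1) as single libraries were left out, and was -0.04 without Ang II + FI 1. Of the 59 named genes, 4 that were not called passed with DESeq2 (Col1a1, Hmox1, Eln and Agtr1a), and Col1a1 also passed in the fit of 11 libraries. With Ang II + FI 3 included, calls were lost for 27 of the 59 that kept their direction, and also for Errfi1, whose direction turned. Calls were lost for 23 with no filter, 5 when overlapping models were summed and 36 with the replicate number as a block. They were lost for 2 each (Acta1 and Cbr2) with DESeq2's size factors and without mitochondrially encoded genes. In the fit of 11 libraries 11 were lost, with adjusted p from 0.05003 to 0.112 (Ctss, Errfi1, Gm11992, Gm49322, Ikbkg, Mt2, Prox1, Smad3, Tmem260, Zbtb16 and Zfp36). With the replicate number as a block, 13 genes were higher and 5 lower. Deviations of same-numbered libraries correlated at 0.0089, -0.043 and 0.023 over all genes, and those of differently numbered ones at -0.067 to 0.071. Whether the numbers pair the samples is not known, since such correlations can miss a shared batch that moves only some genes. The causes of these shifts were not tested, beyond the number of libraries and genes that each setting holds. A gene within 3 counts of 0, or 0.0411 to 0.0452 CPM, lies at the limit of detection.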

Other observations

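Several other lists leaned to one side without holding a called gene. All 8 tested genes of MHC class II presentation had log2 fold changes above 0, with a median of 0.57, and summed to 175 to 295 CPM in saline and 273 to 392 CPM in Ang II + FI. All 9 tested NADPH oxidase subunits were above 0, with a median of 0.31. Of 27 cell cycle genes 21 were above 0 and the median was 0.49, with Mki67, a marker of cycling cells, at 1.32 ± 0.54 (adjusted p = 0.303). Of 18 genes of ketone and branched-chain amino acid catabolism 15 were below 0, with a median of -0.16. In the same lists the Ang II group stood at medians of 0.58, 0.70, 0.56 and -0.28 against the same saline libraries.

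Some genes on no list were called in nearly every fit that left out a library, and were chosen after their values were seen. Ier5, a growth-induced early response gene, stood at 13.4, 18.6, 21.2 and 16.7 CPM in saline and 42.6, 44.1 and 48.4 CPM in Ang II + FI (1.36 ± 0.15, adjusted p = 0.00625 by edgeR's quasi-likelihood test). Otulin, a deubiquitinase of linear ubiquitin chains, stood at 16.9, 13.9, 18.6 and 17.1 CPM and 35.8, 30.7 and 32.7 CPM (0.99 ± 0.12, adjusted p = 0.00989). Spcs1, a subunit of the signal peptidase of the endoplasmic reticulum, stood at 33.3, 29.4, 25.5 and 33.5 CPM and 75.8, 56.1 and 64.6 CPM (1.10 ± 0.13, adjusted p = 0.0111), and was not called without Ang II + FI 4. In all 3 the groups did not overlap, and Ang II + FI 3 stood at 42.5, 32.1 and 51.4 CPM. Spcs1 overlaps Glt8d1 on the other strand, which averaged 17.9 CPM in saline and 17.2 CPM in Ang II + FI. Their reads cannot be told apart without strand.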
